A study of Mus musculus with 2 samples.

Results

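Long noncoding RNAs are transcripts that are processed much like messenger RNA but are not translated into protein as far as is known, and 8 of them that mark steps of neuron formation or organise the nucleus were followed along the neurogenic lineage of the adult mouse brain. They were taken by gene symbol: Malat1, Neat1, Meg3, Miat, Snhg11, Sox2ot, Pantr1 and Dlx6os1. Of the 27998 genes in the count matrix, 7 matched, and Sox2ot was not analysed here. The cells came from male C57BL/6 mice, from the SVZ (subventricular zone), the stem cell niche beside the lateral ventricles. One library pooled tissue of 8 mice aged 22 months and the other pooled tissue of 4 mice aged 2 months. The labels name no transgene and no treatment for either group. Pooling leaves no value per mouse. Cells were sorted as GLAST+ (a glutamate transporter of radial glia-like stem cells and astrocytes) and as free of O4, Ter119 and CD45, and 8000 sort events per library entered droplet-based 3' sequencing. The barcodes carry a library number that no label ties to an age, so values are given for library 1 and library 2, and nothing here compares old with young.

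In this niche, quiescent astrocyte-like stem cells become activated, divide as transit amplifying progenitors and give rise to neuroblasts, which migrate to the olfactory bulb and become interneurons. Malat1 and Neat1 are retained in the nucleus: Malat1 gathers in nuclear speckles, where splicing factors are stored, and Neat1 is the scaffold of paraspeckles. Meg3 is transcribed from the maternal copy of the imprinted Dlk1-Dio3 region. Miat, also called Gomafu, forms nuclear foci in neural cells. Dlx6os1, also called Evf2, is transcribed antisense to the homeobox gene Dlx6 in developing GABAergic neurons. Pantr1 lies beside the neural transcription factor gene Pou3f3. Snhg11 is a host gene of small nucleolar RNAs and a neuronal transcript.

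Library 1 held 1849 barcodes and 10440891 UMIs (unique molecular identifiers, each standing for 1 captured transcript), and library 2 held 2088 barcodes and 13330251 UMIs. After filtering, 1825 cells of library 1 and 2064 of library 2 remained, with medians of 4442 and 5779.5 UMIs. The libraries shared 4 barcode sequences. Clusters were built without the studied genes and named from fixed markers. Of these, 2 clusters were astrocyte-like (711 cells in library 1 and 577 in library 2), 2 activated (182 and 354), 3 dividing (223 and 469) and 2 neuroblast (277 and 301). Astrocyte and neuroblast markers set their classes apart, and those of the stages between did so less clearly. The 16 astrocyte markers summed to 49700 and 43335 CPM (UMIs per 1000000 UMIs) in astrocyte-like cells and to at most 3472 CPM in the other 3 classes. The 14 neuroblast markers summed to 14011 and 13789 CPM in neuroblasts and to at most 5075 CPM elsewhere. Markers of dividing cells summed to 4255 and 4819 CPM in dividing cells and to at most 669 CPM in the other 3 classes, but dividing cells held slightly more of the neuroblast markers, 4925 and 5075 CPM. Markers of activated cells summed to 3840 and 3408 CPM in activated cells, against 3144 and 2616 CPM in dividing cells, and activated cells also held 3414 and 3220 CPM of neuroblast markers. Markers of the astrocyte-like class do not separate quiescent stem cells from other astrocytes. Endothelial markers summed to 4.37 and 90.4 CPM in activated cells and to at most 18.3 CPM in the other 3 classes. In activated cluster 5, 4 of the 6 endothelial markers were up at least 1.5-fold against all other cells. Their mean log2 fold there was 0.99, against 0.57 for the activated markers, and their part in the results was not tested. A class of 1 library is 1 pooled sample, no test was run, and all intervals are exact 95% intervals for counting error only. "Higher" and "lower" are used for a difference of at least 1.5-fold, and a gene counts as measured where both sides of a comparison sum to 50 UMIs or more. Depth differed along the lineage: the median was 3513 and 3463 UMIs per cell in astrocyte-like, 8881 and 7624.5 in activated, 10486 and 10130 in dividing and 2981 and 3281 in neuroblast cells of library 1 and library 2. CPM is a share of a cell's RNA, and fewer UMIs of a gene cannot be told apart from more UMIs of the others.

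The stages of the lineage differed in which of these RNAs were high. Astrocyte-like cells were highest in Malat1 and Neat1, activated cells in Miat, and neuroblasts in Meg3 and Dlx6os1. In activated over astrocyte-like cells, 1 of the 6 RNAs measured in both libraries was higher in both (Miat) and 3 were lower (Malat1, Neat1 and Meg3). Of all genes measured in both, 24% were higher and 25.3% lower in both libraries (28.9% higher and 31.1% lower in library 1 alone, 29.7% and 29.1% in library 2). In dividing over astrocyte-like cells, Dlx6os1 was higher and the same 3 were lower, where 27.7% of all genes were higher and 26.2% lower (33.1% and 31.1% in library 1, 32.1% and 29.5% in library 2). In neuroblasts over astrocyte-like cells, Meg3 and Dlx6os1 were higher and Malat1 and Neat1 lower, with 27% of all genes in each direction (31.6% higher and 32.5% lower in library 1, 32.5% and 31.5% in library 2). In neuroblasts over activated cells, Malat1, Meg3 and Dlx6os1 were higher and Neat1 and Miat lower, where 15.1% of all genes were higher and 14.2% lower (22.3% and 21.4% in library 1, 19.7% and 20.8% in library 2). With 6 measured members these counts are too small to set the group apart from other genes, and the values of each RNA follow.

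**Figure D1:**
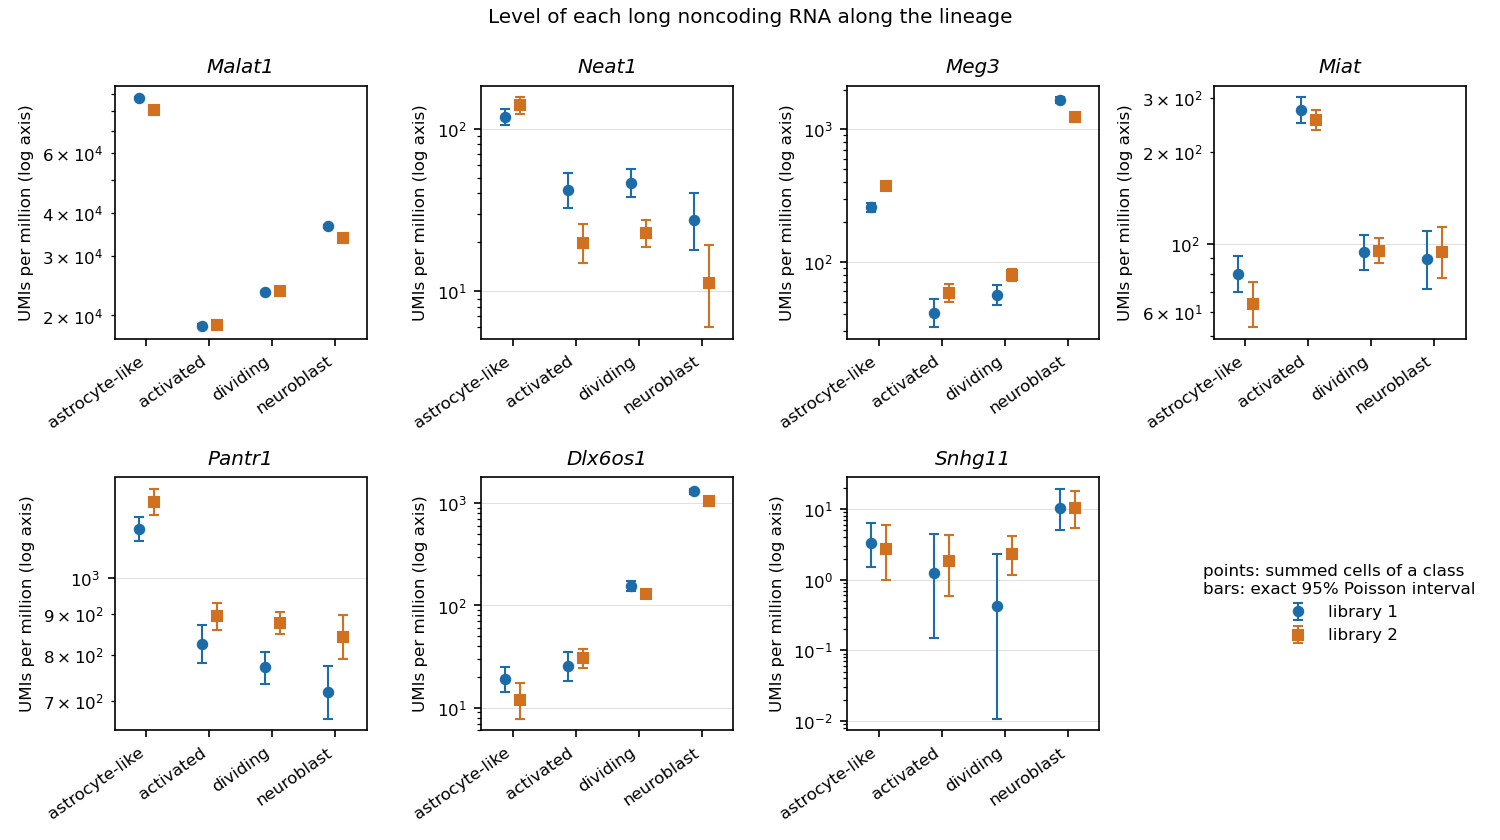
Level of each RNA, in CPM on a log axis, in the 4 classes in lineage order. Points are sums over the cells of a class in library 1 (circles) and library 2 (squares), and bars are exact 95% Poisson intervals. Meg3 and Dlx6os1 have their highest points in neuroblasts (1658 and 1245, and 1303 and 1045), Miat in activated cells (275 and 255), and Malat1 and Neat1 in astrocyte-like cells.

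Malat1 made up a large share of the RNA in astrocyte-like cells, 8.73% of UMIs in library 1, and its share was lowest in activated cells. It had 87266 CPM (86915 to 87619) in astrocyte-like, 18662 in activated, 23435 in dividing and 36626 in neuroblast cells of library 1. Library 2 gave 80536, 18779, 23591 and 33744 CPM in the same order. The order astrocyte-like, neuroblast, dividing, activated was thus the same in both libraries for class sums, and no intervals of neighbours overlapped. Single clusters did not all keep that order. Neuroblast cluster 4 had 48576 and 50255 CPM, and neuroblast cluster 7 had 22873 and 23209 CPM. Cluster 7 did not exceed the dividing class, so the place of neuroblasts above dividing cells came from cluster 4. Astrocyte-like cluster 0 had 106594 and 98766 CPM, and cluster 1 had 53307 and 64070 CPM. Malat1 was 4.68-fold lower in activated than in astrocyte-like cells of library 1 (4.62 to 4.73) and 4.29-fold lower in library 2 (4.25 to 4.33). In library 1 the log2 ratio of -2.23 became -1.16 with clusters named by another rule. That rule adds the unnamed clusters 2, led by stress genes, and 8 to the activated class. It also takes cluster 5, with 129 and 202 cells, out of that class, since endothelial markers had the highest mean fold there. In neuroblasts Malat1 was 2.38-fold and 2.39-fold lower than in astrocyte-like cells. In neuroblasts over activated cells it was 1.96-fold and 1.80-fold higher. That call was not stable: with clusters split more finely the log2 ratios of 0.97 and 0.85 became 0.31 and 0.19, and with the other naming rule -0.092 and 0.36. With stricter cell filters library 2 gave 0.27. The count per cell followed another order. Astrocyte-like cells had 332 and 305 Malat1 UMIs per cell, activated cells 164 and 145, dividing cells 249 and 237, and neuroblasts 126 and 130. Neuroblasts therefore had the fewest Malat1 molecules per cell, although not the lowest share.

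Neat1 was also highest in astrocyte-like cells among the 4 classes. It had 118 CPM (105 to 131) in astrocyte-like, 41.9 (32.4 to 53.2) in activated, 46.5 (38.2 to 56.0) in dividing and 27.4 (17.9 to 40.1) in neuroblast cells of library 1. In library 2 the values were 139 CPM (123 to 155), 19.8 (14.8 to 25.8), 22.7 (18.6 to 27.5) and 11.2 (5.99 to 19.2). Activated and dividing cells did not differ beyond their intervals in either library. Neat1 was 2.81-fold lower in activated than in astrocyte-like cells of library 1 (2.15 to 3.71) and 7.02-fold lower in library 2 (5.24 to 9.56). In neuroblasts it was 4.30-fold lower (2.88 to 6.68) and 12.3-fold lower (7.10 to 23.4). Between neuroblasts and activated cells the log2 ratio was -0.61 and -0.81, and its interval included 0 in both libraries. With the other naming rule it was -3.22 and -3.49. Under that rule Neat1 turned round in library 1, with a log2 ratio of 1.12 in activated over astrocyte-like cells against -1.49. In library 2 it then stood at -0.13 against -2.81.

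The share of cells with a Neat1 UMI was compared after every cell was thinned to 2000 UMIs. It was 20.1% (17.01 to 23.4) of 633 astrocyte-like cells, 7.14% of 182 activated, 7.24% of 221 dividing and 6.07% of 247 neuroblast cells in library 1. Library 2 gave 21.2% (17.8 to 24.9), 4.25%, 4.71% and 2.79%. Without thinning, 31.2% and 32.4% of astrocyte-like cells and 8.66% and 4.32% of neuroblasts had one. Neat1 was thus seen in a minority of cells of every class at this depth.

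Malat1 and Neat1 are neighbours on chromosome 19 (GRCm38, minus strand), at chr19:5795690-5802672 and chr19:5824708-5845478, with 22035 bases between them. Neither is spliced in its full-length annotated form, and neither ends in a poly(A) tail there: 2 U-rich tracts and an A-rich tract at the 3' end fold into a triple helix that protects the RNA. UMIs were counted per gene, so they do not tell these full-length forms from other forms of the 2 RNAs. How far RNA without a poly(A) tail enters the 3' sequencing was not tested. The 100 bases that end with the A-rich tract are shown as DNA letters because they are what both RNAs have in common. Capitals mark TTTCTTTT, a second tract of T around a central GC, and the run of A that ends in GCAAAA.
Malat1 3' tract, chr19:5795982-5796081: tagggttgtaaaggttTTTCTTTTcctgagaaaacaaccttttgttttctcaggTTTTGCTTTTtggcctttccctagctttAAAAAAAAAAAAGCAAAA
Neat1 3' tract, chr19:5824708-5824807: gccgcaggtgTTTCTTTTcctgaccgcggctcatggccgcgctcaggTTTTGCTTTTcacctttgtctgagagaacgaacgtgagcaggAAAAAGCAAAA
These tracts were read on the transcribed strand only and were chosen from these 2 sequences. Among 42587 annotated transcripts of at least 2000 bases (GENCODE M21), 1 of Malat1 and 1 of Neat1 were the 2 that held all 3 within 100 bases. The A run is 12 bases long in Malat1 and 5 in Neat1. In the annotated Malat1 transcript 292 bases follow the tract. The 3 genes most like Malat1 over the clusters were Saraf (r = 0.95), Ctsl (0.94) and Ctsf (0.94), and those most like Neat1 were Nkx6-2 (0.90), Tppp3 (0.88) and Ephb1 (0.88). Malat1 and Neat1 were highest in the same class, but their pattern over clusters differed: Pearson's r between them was 0.57 over 24 points, a point being a cluster of a library with at least 30 cells. The points include 1 of oligodendrocytes, in library 1, with 1291 CPM of Neat1, against at most 495 CPM in any other point. How far the values for Neat1 rest on that point was not tested. The points also share libraries and depth, and r is a description.

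Genes for proteins of paraspeckles and nuclear speckles were more often higher than lower in the later classes. Of 16 listed and measured, 8 were higher and 1 lower in activated over astrocyte-like cells in both libraries, beside 24% and 25.3% of all genes. In dividing cells 11 were higher and 1 lower, beside 27.7% and 26.2%, and in neuroblasts 8 were higher and 1 lower, beside 27% in each direction. The median log2 ratio of the list in neuroblasts over astrocyte-like cells was 0.77 and 0.65, beside 0.036 and 0.078 over all measured genes. Nono, a core paraspeckle protein, had 459 and 394 CPM in neuroblasts, against 149 and 154 CPM in astrocyte-like cells. Sfpq, its partner in paraspeckles, had 562 and 512 CPM in neuroblasts, against 214 and 188 CPM in astrocyte-like cells. Nudt21 and Cpsf6, subunits of a cleavage factor that in human cells sets the polyadenylation site of NEAT1, showed log2 ratios of 1.26 and 1.13, and of 1.12 and 1.12. The gene that was lower was Son, a nuclear speckle scaffold, with 540 and 484 CPM in neuroblasts, against 929 and 788 CPM in astrocyte-like cells. Between neuroblasts and activated cells, none of the 16 was past 1.5-fold in both libraries, beside 15.1% of all genes higher and 14.2% lower, and 2 were higher in library 1.

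Of the classes, Meg3 was highest in neuroblasts, but its high level lay in only 1 of the 2 neuroblast clusters. It had 258 CPM (239 to 278) in astrocyte-like, 41.2 (31.9 to 52.5) in activated, 56.2 (47.1 to 66.6) in dividing and 1658 (1577 to 1742) in neuroblast cells of library 1. Library 2 gave 371 CPM (346 to 397), 58.2 (49.5 to 68.0), 79.2 (71.4 to 87.7) and 1245 (1182 to 1311). Meg3 was thus at its lowest in activated and dividing cells of both libraries and intermediate in astrocyte-like cells. In activated over astrocyte-like cells it was 6.26-fold lower (4.86 to 8.18) and 6.37-fold lower (5.37 to 7.60). With the other naming rule those log2 ratios, -2.65 and -2.67, became -1.24 and -1.30, and with finer clusters library 2 gave -1.49. In neuroblasts over activated cells it was 40.2-fold higher (31.4 to 52.2) and 21.4-fold higher (18.2 to 25.4). As log2 ratios these were 5.33 and 4.42, and with the other naming rule 3.93 and 3.05. In neuroblasts over astrocyte-like cells the log2 ratios were 2.68 and 1.75, which became 1.84 and 0.66 with stricter cell filters and 1.97 and 0.79 with coarser clusters.

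The high level lay in neuroblast cluster 4, which had Runx1t1, Islr2 and Gad1 among its leading genes beside Meg3 itself and held 182 and 155 cells. Meg3 had 2916 and 2866 CPM there, against 211 and 211 CPM in cluster 7, the neuroblast cluster with Dcx, Sp8 and Tubb3 among its leading genes (95 and 146 cells). The fold was 13.8 (11.2 to 17.3) in library 1 and 13.6 (11.4 to 16.2) in library 2. Cluster 7 thus did not exceed the astrocyte-like class, which had 258 and 371 CPM. Cluster 4 cells were shallower, with medians of 2670.5 and 2692 UMIs, against 4552 and 4371.5 UMIs in cluster 7. When all neuroblasts were split into 3 equal parts by total UMIs, Meg3 was at 440 and 333 CPM in the deepest part and at 3541 and 3241 CPM in the shallowest. Within cluster 7 the same split gave 28.5 and 56.0 CPM in the deepest part and 567 and 407 CPM in the shallowest. Within cluster 4 it gave 1863 and 2046 CPM, against 4168 and 3829 CPM. Total UMIs are also the denominator of CPM, so the count per cell is the plainer value. Within cluster 4 it was 6.92 and 7.92 Meg3 UMIs in the deepest part and 8.41 and 8.29 in the shallowest, a much smaller difference. Within cluster 7 it was 0.19 and 0.40 in the deepest part and 1.53 and 1.20 in the shallowest. Over all neuroblasts, which mix the clusters, it was 2.28 and 1.96 in the deepest part and 7.48 and 7.53 in the shallowest. The part of depth in these differences was not tested. After thinning to 2000 UMIs, 60.3% (53.9 to 66.5) and 56.4% (50.5 to 62.3) of neuroblasts had a Meg3 UMI, against 24.2% and 28.4% of astrocyte-like cells. In oligodendrocytes, used as a background cell type, the share was 4.35% of 92 cells in library 1, at a median of 4210 UMIs per cell.

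**Figure D2:**
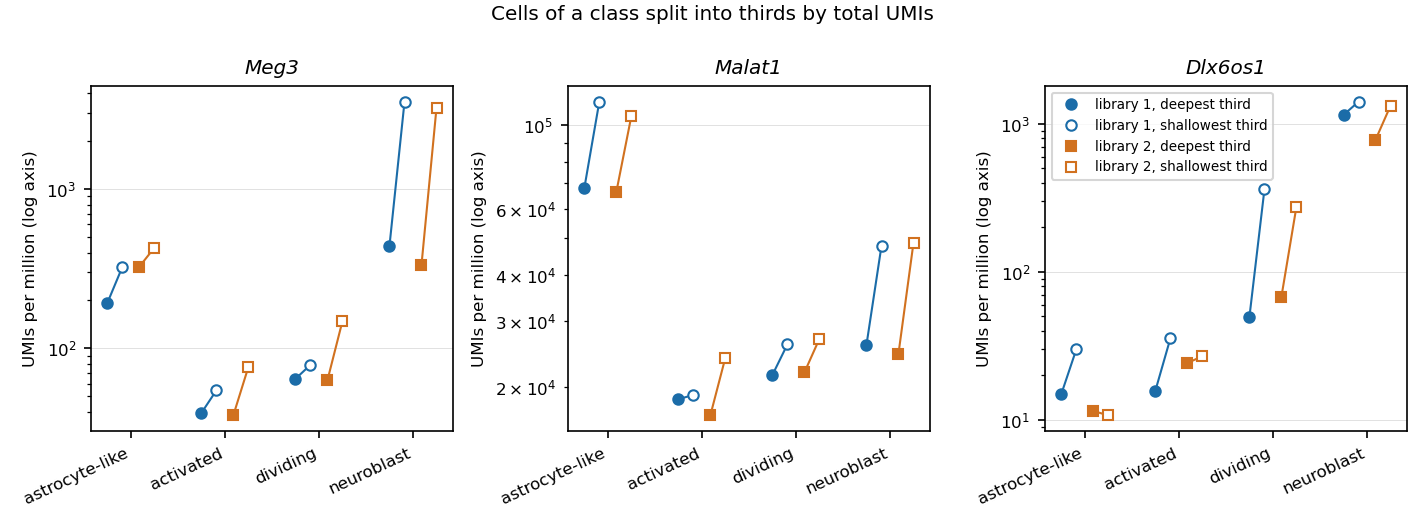
Level in CPM (log axis) in the deepest (filled) and the shallowest (open) of 3 equal parts of the cells of each class, by total UMIs, for Meg3, Malat1 and Dlx6os1 in library 1 (circles) and library 2 (squares). Meg3 in neuroblasts lies at 440 and 333 in the deepest parts and at 3541 and 3241 in the shallowest, where total UMIs are also the denominator of CPM.

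Meg3 lies at chr12:109541001-109571726 on the plus strand (GRCm38) and starts 88178 bases from the start of Dlk1, the paternally expressed gene of the same region. Dlk1 had 2.11 CPM and 0 CPM in neuroblasts, against 31.4 and 19.7 CPM in astrocyte-like cells. Mirg, another RNA of the region, had 3 and 12 UMIs in neuroblasts and was not measured. The Meg3 promoter is shown because the gene differed so widely within 1 class. The 300 bases run from 250 before to 50 after the start (RefSeq, GRCm38.p6), and capitals mark TGACGTCA, the cAMP response element, and TATAAA, the TATA box.
Meg3 promoter, chr12:109540746-109541045, plus strand: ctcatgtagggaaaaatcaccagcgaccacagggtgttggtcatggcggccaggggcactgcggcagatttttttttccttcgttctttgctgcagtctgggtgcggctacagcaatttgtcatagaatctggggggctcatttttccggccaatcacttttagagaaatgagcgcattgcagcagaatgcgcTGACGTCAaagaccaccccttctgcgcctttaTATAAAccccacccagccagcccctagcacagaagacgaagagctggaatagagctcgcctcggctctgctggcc
Both strands were searched. TGACGTCA reads the same on both strands and was found 1 time, and 1.79% of 32851 RefSeq promoters of this length hold it. TATAAA was found on both strands at overlapping places, and 13.6% of the promoters hold it. These matches describe letters and not sites in use. The promoter at a second annotated start of Meg3, chr12:109545148-109545447, holds neither TGACGTCA nor TATAAA. The 3 genes most like Meg3 over the 24 cluster points were Alg2 (r = 0.94), Dpysl4 (0.92) and Nudt10 (0.91).

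Dlx6os1 was highest in neuroblasts and, among dividing cells, in the cluster that shared their Dlx and Sp genes. It had 19.2 CPM (14.4 to 25.2) in astrocyte-like, 25.6 (18.4 to 34.8) in activated, 156 (140 to 172) in dividing and 1303 (1232 to 1378) in neuroblast cells of library 1. Library 2 gave 11.9 CPM (7.77 to 17.4), 30.4 (24.2 to 37.6), 131 (121 to 142) and 1045 (987 to 1106). The order of the 4 classes was the same in both libraries for class sums, and the place of the dividing class came mainly from cluster 3. In library 1 astrocyte-like and activated cells did not differ beyond their intervals. In neuroblasts over astrocyte-like cells the fold was 67.8 (51.4 to 91.3) and 87.9 (59.7 to 135), and the log2 ratios of 6.08 and 6.46 became 5.49 and 5.42 with stricter cell filters. In dividing over astrocyte-like cells it was 8.09 (6.04 to 11.03) and 10.998 (7.43 to 16.97), and with coarser clusters the log2 ratios of 3.02 and 3.46 became 0.92 and 1.73. In activated over astrocyte-like cells of library 2 it was 2.55, which is not a stable call, since the log2 ratio of 1.35 became -0.038 when the clusters were split more finely and 0.49 with stricter cell filters. After thinning, 89.5% (85.0 to 93.01) and 84.3% (79.6 to 88.3) of neuroblasts had a UMI, against 3.79% and 2.77% of astrocyte-like cells and 1.09% of oligodendrocytes in library 1. The intervals of the last 3 shares overlapped, at median depths of 3513, 3463 and 4210 UMIs, so Dlx6os1 in astrocyte-like cells was not told apart from background.

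The dividing class was not uniform for Dlx6os1. It stood at 395 and 247 CPM in dividing cluster 3, which had Sp9 and Dlx5 among its leading genes, against 25.7 and 16.4 CPM in dividing cluster 6. That is 15.4-fold (10.9 to 22.4) and 15.1-fold (10.1 to 23.8). Library 1 had 97 cells in cluster 3 and 108 in cluster 6, and library 2 had 244 and 136. Both clusters had Top2a, a topoisomerase of dividing cells, among their leading genes. In cluster 3, 13 of the 14 neuroblast markers were also up at least 1.5-fold against all other cells, and 0 in cluster 6. Dcx had 337 and 248 CPM in cluster 3, against 26.4 and 22.5 CPM in cluster 6. In cluster 11, a further dividing cluster led by Cdc20, Cenpa and Ccnb1, Dlx6os1 stood at 15.7 (2 UMIs) and 21.5 CPM. Clusters 6 and 11 were thus much closer to the astrocyte-like class, with 19.2 and 11.9 CPM, than cluster 3 was. Activated cells showed a smaller difference, with 45.5 and 51.7 CPM in cluster 9, with the S phase genes Ung and Uhrf1 among its leading genes, and 17.01 and 12.7 CPM in cluster 5, where Miat was among the leading genes.

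**Figure D3:**
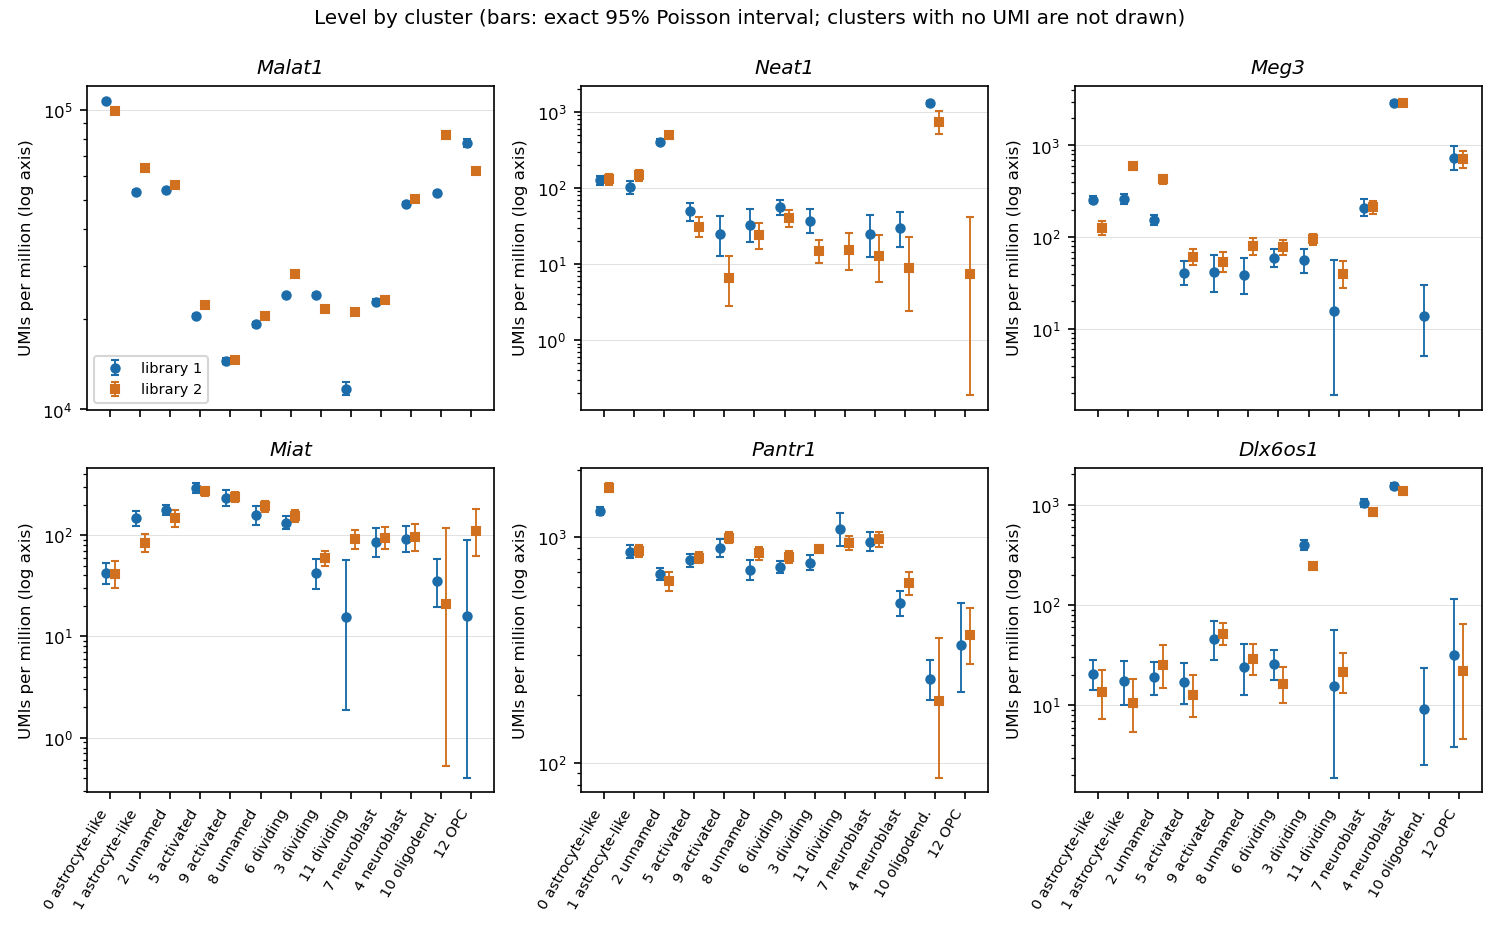
Level of 6 RNAs in CPM (log axis) in clusters ordered along the lineage, with oligodendrocytes and their precursors (OPC) at the right, for library 1 (circles) and library 2 (squares). Bars are exact 95% Poisson intervals. Meg3 stands at 2916 and 2866 in neuroblast cluster 4 and at 211 and 211 in cluster 7, and Dlx6os1 at 395 and 247 in dividing cluster 3 and at 25.7 and 16.4 in cluster 6.

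Dlx6os1 lies at chr6:6820189-6871592 on the minus strand (GRCm38) and overlaps Dlx6, on the plus strand, by 5235 bases, while Dlx5 lies 6212 bases away. Whether the counting used the strand is not given in the sources used here, so reads in the overlap may be shared between Dlx6os1 and Dlx6. Dlx5 and Dlx6, homeobox genes which drive GABAergic interneuron fate, had a like pattern. Pearson's r with Dlx6os1 was 0.96 for Dlx5 and 0.91 for Dlx6 over the 24 points. Dlx5 had 5.18 and 5.95 CPM in astrocyte-like, 11.9 and 19.8 CPM in activated, 115 and 86.5 CPM in dividing and 329 and 294 CPM in neuroblast cells. Dlx6 had 85.3 and 84.8 CPM in neuroblasts, against 1.11 and 1.83 CPM in astrocyte-like cells. Dlx5, like Dlx6os1, was far higher in dividing cluster 3, with 311 and 164 CPM, than in cluster 6, with 8.55 and 8.18 CPM. The 3 genes most like Dlx6os1 were Sp8 (0.98), a zinc finger factor of olfactory interneurons, Tiam2 (0.97) and Dlx5. The promoter of Dlx6os1 is shown because Dlx factors are homeodomain proteins, and capitals mark TAATTA, a core that many homeodomain proteins bind.
Dlx6os1 promoter, chr6:6869484-6869783, minus strand: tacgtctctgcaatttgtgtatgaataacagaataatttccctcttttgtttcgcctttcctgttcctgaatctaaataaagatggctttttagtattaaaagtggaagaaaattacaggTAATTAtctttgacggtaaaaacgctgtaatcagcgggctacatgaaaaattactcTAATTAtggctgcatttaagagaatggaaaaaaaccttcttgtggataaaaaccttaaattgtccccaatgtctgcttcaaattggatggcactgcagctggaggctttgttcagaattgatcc
TAATTA reads the same on both strands. It occurs 2 times here, and 5.29% of the 32851 promoters of this length hold it (RefSeq, GRCm38.p6). A second annotated start of Dlx6os1, at chr6:6861634-6861933, has 1 copy. The 2 promoters are 35.7% and 35.3% G and C, and the 5.29% is not matched for base content. The matches say nothing about which protein, if any, binds there.

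Among the 4 classes Miat was highest in activated cells. It had 80.2 CPM (69.9 to 91.7) in astrocyte-like, 275 (250 to 302) in activated, 94.2 (82.3 to 107) in dividing and 89.5 (71.5 to 111) in neuroblast cells of library 1. Library 2 gave 63.6 CPM (53.5 to 75.1), 255 (236 to 275), 95.4 (86.8 to 105) and 94.3 (77.4 to 114). The peak in activated cells stood clear of all other classes in both libraries, while dividing and neuroblast cells did not differ beyond their intervals. Outside the classes, the unnamed clusters 2 and 8 had 177 and 147 CPM and 156 and 192 CPM. In activated over astrocyte-like cells Miat was 3.43-fold higher (2.91 to 4.05) and 4.01-fold higher (3.34 to 4.84). In neuroblasts over astrocyte-like cells its log2 ratios, 0.16 and 0.57, lay under 1.5-fold, but with finer clusters they were 1.46 and 1.57 and with stricter cell filters 1.42 and 1.55. In neuroblasts over activated cells it was 3.07-fold lower (2.43 to 3.92) and 2.70-fold lower (2.21 to 3.34), and with stricter cell filters the log2 ratio in library 2 was -0.51 in place of -1.43. After thinning, 35.7% (28.8 to 43.1) and 37.7% (32.6 to 43.0) of activated cells had a UMI, against 11.4% and 10.9% of astrocyte-like cells and 7.61% of oligodendrocytes in library 1. Without thinning 80.2% and 71.8% of activated cells had one.

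Miat also differed inside classes. Among astrocyte-like cells it had 147 and 83.6 CPM in cluster 1, which was led by Gfap, S100a6, Prss56 and Thbs4, and 42.4 and 41.5 CPM in cluster 0, led by Cxcl14, Slc7a10 and Htra1. Cluster 1 was thus 3.47-fold higher (2.60 to 4.66) in library 1 and 2.02-fold higher (1.39 to 2.96) in library 2. Among dividing cells Miat had 133 and 155 CPM in cluster 6 and 41.9 and 59.3 CPM in cluster 3, a 3.17-fold (2.20 to 4.68) and 2.61-fold (2.10 to 3.25) difference. Dlx6os1 and Miat therefore took opposite sides of these 2 dividing clusters. The 3 genes most like Miat were Ebna1bp2 (0.93), Lima1 (0.90) and Gnl3 (0.89), of which Ebna1bp2 and Gnl3 encode nucleolar proteins.

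Miat lies at chr5:112213228-112229395 on the minus strand (GRCm38). Its transcript carries copies of ACTAAC, close to the sequence at which splicing factor 1 recognises introns, and Miat is known to bind that factor. The stretch with most copies is shown with the copies in capitals, as bases 4470 to 4669 of an annotated Miat transcript (GENCODE M21).
Miat repeat: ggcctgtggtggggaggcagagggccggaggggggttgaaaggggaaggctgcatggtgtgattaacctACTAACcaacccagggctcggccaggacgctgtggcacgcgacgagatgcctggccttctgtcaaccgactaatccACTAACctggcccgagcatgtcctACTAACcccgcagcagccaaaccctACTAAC
The transcript is 8758 bases long and holds 11 copies on the transcribed strand, 4 of them in this stretch. Of the 42587 annotated transcripts of at least 2000 bases, 0.033% hold as many, and the median transcript holds 0. By copies per base, which takes length into account, 0.094% (40 transcripts) are as dense. Any copy is held by 31.6%.

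Pantr1 varied by at most 1.60-fold between the classes. It had 1151 CPM (1111 to 1193) in astrocyte-like, 826 (782 to 871) in activated, 772 (737 to 808) in dividing and 718 (665 to 774) in neuroblast cells of library 1. Library 2 gave 1245 CPM (1198 to 1292), 895 (860 to 931), 877 (851 to 905) and 843 (791 to 897). Astrocyte-like cells were highest and their intervals overlapped with no other class, yet the differences stayed under 1.5-fold except for neuroblasts of library 1, where Pantr1 was 1.60-fold lower (1.47 to 1.74). Several of them lay near that limit. In dividing cells of library 1 the log2 ratio of -0.58 passed it under 5 of 9 alternatives, down to -0.80 with stricter cell filters. In activated cells the log2 ratio of -0.48 in each library passed it under 3 of 9, down to -0.71 and -0.76 with finer clusters. Per cell the order was another: astrocyte-like cells had 4.38 and 4.71 Pantr1 UMIs, activated cells 7.26 and 6.91, dividing cells 8.19 and 8.81 and neuroblasts 2.46 and 3.24. Inside the neuroblasts Pantr1 had 510 and 626 CPM in cluster 4, against 958 and 981 CPM in cluster 7, opposite to Meg3. Inside the astrocyte-like class it had 864 and 868 CPM in cluster 1 and 1315 and 1662 CPM in cluster 0. Oligodendrocytes had 235 and 188 CPM, below every class of the lineage.

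Pantr1 lies at chr1:42590782-42694842 on the minus strand (GRCm38), and its start is 926 bases from that of Pou3f3, which runs the other way. Pou3f3 had 177 and 216 CPM in astrocyte-like, 129 and 182 CPM in activated, 187 and 220 CPM in dividing and 152 and 239 CPM in neuroblast cells. It was thus past 1.5-fold in no class over astrocyte-like cells. Over the 24 points r between Pantr1 and Pou3f3 was 0.70. The 3 genes most like Pantr1 were Ezr (0.87), Gm14964 (0.80) and Ndufa12 (0.78).

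Snhg11 was close to the limit of detection in the lineage. It had 9, 2, 1 and 10 UMIs in astrocyte-like, activated, dividing and neuroblast cells of library 1, and 6, 5, 11 and 12 UMIs in library 2. Neuroblasts gave the highest level in both libraries, 10.5 and 10.4 CPM, against 3.33 and 2.75 CPM in astrocyte-like cells. The ratio was 3.16 (1.16 to 8.80) in library 1 and 3.78 (1.31 to 12.3) in library 2. Over the 24 points the genes most like it were Tpm1 (0.88), Pdgfra (0.87) and Cacng4 (0.87), of which Pdgfra marks oligodendrocyte precursors. The points include these precursors in library 2, with 214 CPM of Snhg11, against at most 15.5 CPM in any other point. In no comparison did Snhg11 reach the 50 UMIs set for a measured gene. At chr2:158375638-158386145 on the plus strand (GRCm38), Snhg11 is annotated as protein coding in GENCODE M21, although it is commonly described as a noncoding host gene.

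**Figure D4:**
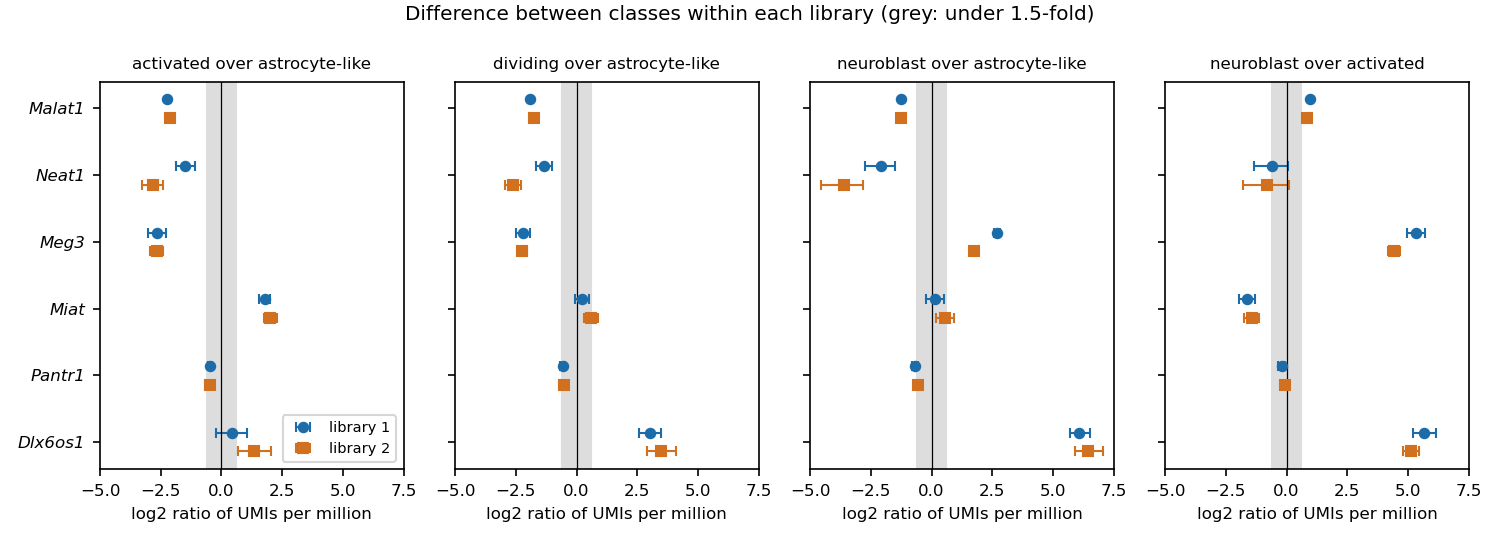
Log2 ratio of CPM between classes for 6 RNAs, in library 1 (circles) and library 2 (squares), with exact 95% intervals for counting error. The grey band marks differences under 1.5-fold. Dlx6os1 lies at 6.08 and 6.46 and Meg3 at 2.68 and 1.75 in neuroblasts over astrocyte-like cells, and Miat at 1.78 and 2.00 in activated over astrocyte-like cells.

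Summed over a class, few of the RNAs differed between the libraries. Single clusters held further differences. Miat had a log2 ratio of library 1 over library 2 of 0.81 (0.43 to 1.20) in astrocyte-like cluster 1. For Dlx6os1 in dividing cluster 3 it was 0.67 (0.47 to 0.87). In astrocyte-like cells 1 of 6 measured was higher in library 1 and none lower, where 6.1% of all genes were higher and 4.98% lower. That 1 was Dlx6os1, with a ratio of 1.62 whose interval on the log2 scale (-0.01 to 1.43) included 0. In activated cells 1 of 6 was higher (4.54% of all genes; 4.36% lower), and in dividing cells 1 of 6 (4.97%; 3.4% lower). Both times it was Neat1. It had 41.9 CPM in library 1 and 19.8 CPM in library 2 among activated cells, a 2.12-fold difference with log2 interval 0.54 to 1.63, and with doublets kept the log2 ratio was 0.57, under 1.5-fold. Among dividing cells it had 46.5 CPM in library 1 and 22.7 CPM in library 2, a 2.05-fold difference with log2 interval 0.63 to 1.43. Within dividing clusters 6 and 3 the log2 ratio was 0.49 (-0.019 to 0.998) and 1.33 (0.58 to 2.08), and within activated cluster 5 it was 0.68 (0.087 to 1.28). Cluster 6, the dividing cluster with most Neat1, held 108 of 223 dividing cells in library 1 and 136 of 469 in library 2. The part of this mix was not tested. In neuroblasts none of 5 was past 1.5-fold (5.78% higher, 3.18% lower), and Neat1, with 26 UMIs in library 1 and 13 in library 2, was not measured.

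Markers of oligodendrocytes also differed between the libraries. All 9 were detected in every class, and their sum was 537 and 241 CPM in astrocyte-like, 365 and 88.5 CPM in activated, 650 and 66.5 CPM in dividing and 359 and 80.5 CPM in neuroblast cells of library 1 and library 2. In activated and dividing cells both the markers and Neat1 were thus higher in library 1, whereas in astrocyte-like cells the markers were higher in library 1 and Neat1 was not, at 118 and 139 CPM. Oligodendrocytes themselves held 69069 and 80598 CPM of these markers and 1291 and 731 CPM of Neat1. At that ratio, the marker sum would carry 6.82 of the 41.9 CPM of Neat1 in activated cells of library 1 and 0.80 of the 19.8 CPM in library 2. In dividing cells it would carry 12.2 of 46.5 CPM and 0.60 of 22.7 CPM. That would leave 35.1 and 18.95 CPM in activated and 34.3 and 22.1 CPM in dividing cells. The reckoning assumes that RNA from oligodendrocytes keeps the ratio seen in them, and its part in the Neat1 difference was not tested.

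Meg3 showed opposite differences between the libraries inside the astrocyte-like class. In cluster 0 it had 257 CPM in library 1 and 127 CPM in library 2, a log2 ratio of 1.01 (0.73 to 1.31). In cluster 1 it had 260 CPM in library 1 and 591 CPM in library 2, a log2 ratio of -1.18 (-1.40 to -0.97). Over the whole class the log2 ratio was -0.52, from 258 CPM in library 1 and 371 CPM in library 2, and with finer clusters it was 0.38. In neuroblasts the log2 ratio of Meg3 was 0.41 over the class but 0.025 in cluster 4 and -0.0040 in cluster 7. Cluster 4 held 182 of the 277 neuroblasts of library 1 and 155 of the 301 of library 2. In the unnamed clusters 2 and 8 the log2 ratio of Meg3 was -1.45 (-1.70 to -1.20) and -1.06 (-1.82 to -0.36). In dividing cluster 3 it was -0.77 (-1.25 to -0.31).

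**Figure D5:**
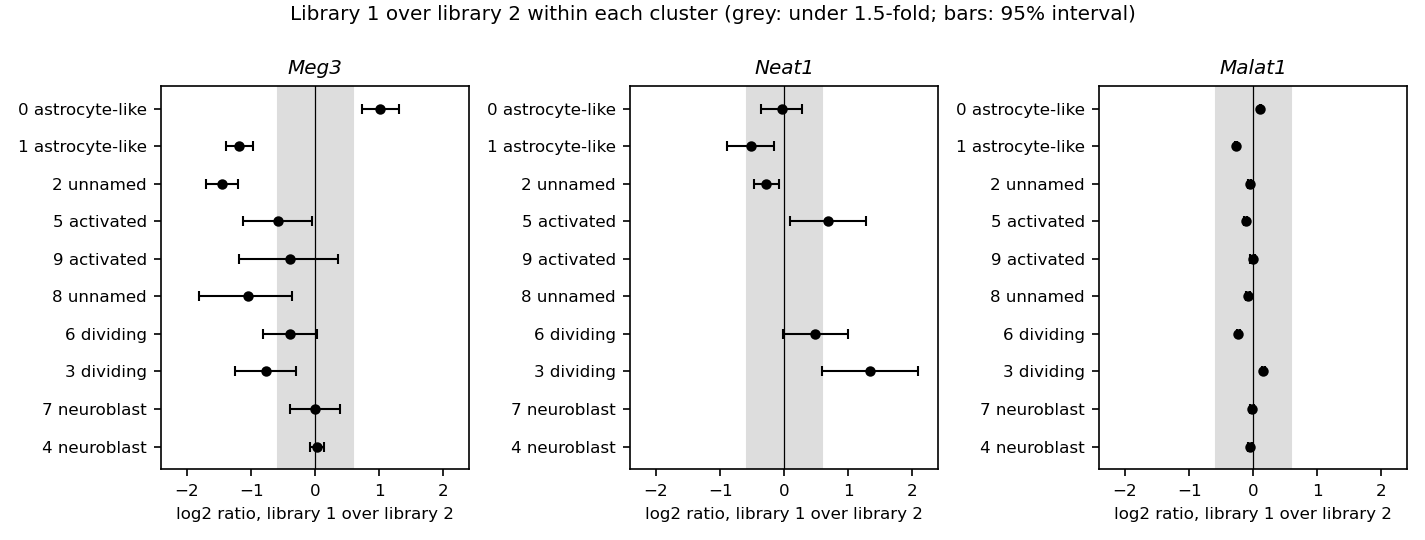
Log2 ratio of library 1 over library 2 for Meg3, Neat1 and Malat1 within each cluster that had at least 30 cells per library and 50 UMIs in all; others, such as Neat1 in neuroblasts, are not drawn. Bars are exact 95% intervals for counting error, and the grey band marks differences under 1.5-fold. Meg3 lies at 1.01 in cluster 0 and at -1.18 in cluster 1, both astrocyte-like, and near 0 in both neuroblast clusters.

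Other long noncoding RNAs gave the members a frame, although few were abundant enough. Of 45 listed, 8 were measured in both libraries for neuroblasts over astrocyte-like cells, with 6 higher and 1 lower, beside 27% of all genes in each direction. A scarce RNA such as Dlx1as or Mir124a-1hg reached 50 UMIs mainly through its neuroblasts, so nothing is read from this count. Mir124a-1hg, the host of a neuronal microRNA, had 60.015 and 56.2 CPM in neuroblasts, against 2.96 and 1.83 CPM in astrocyte-like cells. Dlx1as, antisense to another Dlx gene and so open to the same limit on strand, had 49.5 and 44.1 CPM in neuroblasts, against 1.48 and 3.20 CPM in astrocyte-like cells. Gm17750 had 624 and 654 CPM in neuroblasts, against 112 and 197 CPM in astrocyte-like cells. Rmst, whose human counterpart binds SOX2, was the one that was lower, with 10.5 and 13.0 CPM in neuroblasts, against 137 and 137 CPM in astrocyte-like cells.

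Of 20 small nucleolar RNA host genes listed, 6 were measured in both libraries for the same comparison, with 3 higher and 2 lower, beside the same 27% of all genes in each direction. Snhg6 had 204 and 167 CPM in neuroblasts, against 60.3 and 51.7 CPM in astrocyte-like cells. Epb41l4aos had 138 and 120 CPM in neuroblasts, against 38.8 and 47.1 CPM in astrocyte-like cells. Snhg18 had 2.11 and 7.79 CPM in neuroblasts, against 20.0 and 44.4 CPM in astrocyte-like cells, and Snhg20 had 103 and 75.3 CPM, against 258 and 205 CPM. The list thus held members in both directions, and its median log2 ratio was 0.54 and 0.47, beside 0.036 and 0.078 over all measured genes. Among genes listed as neighbours of the members, Dlx5 and Dlx6 were higher in neuroblasts than in astrocyte-like cells in both libraries, and Ltbp3 and Frmd8, which lie near Malat1 and Neat1, were lower. Sox2, the stem cell factor whose gene lies within Sox2ot, had 267 and 280 CPM in neuroblasts, against 329 and 329 CPM in astrocyte-like cells.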

How the data were processed

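The deposited matrix holds raw UMI counts per gene and barcode for both libraries together. Cell Ranger 2.0.0 and the builds GRCm38.p3 and mm10 are named, without their roles, per the submitters' processing notes. Cells needed 500 genes or more (none failed) and no more than 10% of UMIs from mitochondrial genes (9 and 13 failed), and Scrublet as run in scanpy (expected rate 0.015) removed 15 and 11 doublets. Clusters used scanpy 1.11.5: 2000 variable genes outside the studied lists, 30 components, 15 neighbours, Leiden resolution 1, giving 16 clusters. A cluster took the class with most markers among its 10 leading genes (at least 1, ties by mean fold, with 3 markers at 1.5-fold); this rule was chosen with the clusters in view. In all, 3 clusters stayed unnamed (17.1% and 14.8% of cells).

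UMIs were summed per class and library and scaled to CPM, with Poisson intervals; ratios have conditional binomial intervals, shares Clopper-Pearson ones. The ratio and thinning functions were tested on simulated data. The members and lists were chosen with earlier results of these data known. All members are named, with neighbour genes, the 4 genes of each other list with the largest absolute log2 ratio of neuroblasts over astrocyte-like cells, and the 3 most like each member by log2(CPM + 10), among 9161 genes with at least 200 UMIs; Son was added after its values were seen. Not every listed neighbour gene is reported here. Of the 27998 gene IDs, 27645 matched GENCODE M21. Alternatives varied the filters, doublets, resolution, thinning, weighting, CPM total, fold and naming rule.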

Additional observations from a re-analysis of the deposited data

Results flagged for a closer look

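Meg3 differed between the libraries in opposite directions in both astrocyte-like clusters, with a log2 ratio of library 1 over library 2 of 1.01 in cluster 0 and -1.18 in cluster 1. The difference between these 2 ratios was not tested, because there is 1 library on each side.

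Outside the 4 lineage classes, 3 signals lay above every class of the lineage in both libraries. Neat1 stood at 408 CPM in library 1 and 495 CPM in library 2 in the unnamed cluster 2, which was led by the immediate early and stress genes Junb, Socs3 and Cebpb and held 239 and 129 cells. In oligodendrocytes Neat1 stood at 1291 CPM in library 1, over 99 cells, and at 731 CPM in library 2, over 9 cells. Snhg11 stood at 286 CPM in library 1 and 214 CPM in library 2 in oligodendrocyte precursors, which rest on 16 and 31 cells and on 18 and 29 UMIs.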

How the results depend on the processing

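No paired analysis was possible because the labels give no replicate numbers and 1 library per age. Ratios between classes were taken within each library, and no test over the 2 libraries, which differ in age, was run. Of 39 member ratios past 1.5-fold, 30 stayed past it in the same direction under all alternatives, and of 32 that were not, 18 stayed so. Counts of members past 1.5-fold stayed within 1.5 times in 107 of their recomputations and moved further in 13, as follows. Neuroblasts over activated cells gave 3 members instead of 5 in library 2 with at least 1000 genes and 5% mitochondrial UMIs, and 3 in both libraries at 2-fold. Library 1 over library 2 gave, in astrocyte-like cells, 0 instead of 1 with doublets kept, after thinning and at 2-fold. In activated cells it gave 2 with stricter filters and at resolution 0.5, and 0 after thinning, instead of 1. In dividing cells it gave 2 instead of 1 by mean per-cell shares. In neuroblasts it gave 3 with stricter filters and 2 at resolutions 2 and 0.5, instead of 0. Log2 ratios that turned round were Dlx6os1 in activated over astrocyte-like cells of library 2 (-0.038, resolution 2) and, with the other naming rule, added after seeing the data, Neat1 in activated over astrocyte-like cells of library 1 (1.12) and Malat1 in neuroblasts over activated cells of library 1 (-0.092). That rule adds the unnamed clusters 2 and 8 to the activated class and takes cluster 5 out of it. Leaving out cells with little Malat1, also added later, moved no count by over 1.5 times. A total without mitochondrial genes, ribosomal protein genes and Malat1 moved the median gene of activated over astrocyte-like cells by 0.14 (log2) in both libraries, and resolution 2 moved it by up to 0.20 in activated over astrocyte-like cells of library 1. Of the recomputed shares 53 stayed within their interval and 59 moved, and 441 log2 ratios stayed and 195 moved. The cause was not tested. With log2(CPM + 1), 0 of the 3 genes most like Snhg11 and 1 of those most like Dlx6os1 remained. Without replicates, the spread between animals is unknown.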

Other observations

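Oligodendrocyte precursors carried Meg3 at 731 and 709 CPM and Snhg11 at 286 and 214 CPM, and Dlx6os1 at 31.8 and 22.2 CPM (2 and 3 UMIs) and Neat1 at 0 and 7.39 CPM. Mature oligodendrocytes of library 1 had Neat1 at 1291 CPM and Meg3 at 13.9 CPM. The counts behind the precursor values are small, with 46 and 96 Meg3 UMIs.

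A small number of cells held almost no Malat1. Under 0.4% of UMIs came from Malat1 in 28 of the 3889 cells, a limit chosen after the values were seen; 23 cells lay below 0.2% and 104 below 0.8%. By library they were 16 and 12 cells. Dividing cluster 11 held 9 of its 18 cells in library 1 and 6 of its 89 in library 2 below the limit. Those of cluster 11 were shallower, with a median of 6600 and 5645.5 UMIs, against 8625 and 10955 in the other cells of the cluster, and the median mitochondrial share was 5.77% and 5.83%, against 3.35% and 3.09%. Over all 28 cells, Neat1 had 0 and 1 UMIs and Meg3 0 and 1. Pantr1 had 116 and 66 UMIs there, which is 1238 and 1052 CPM, against 830 and 917 CPM in the rest of all kept cells. That rest mixes clusters. Within cluster 11, Pantr1 had 1417 and 1012 CPM in cells below the limit, against 855 and 942 CPM in its other cells. The latter had 0 and 15.6 CPM of Neat1 and 26.7 and 40.2 CPM of Meg3. The part of the cluster mix was not tested. Without the cells below the limit, Malat1 in cluster 11 stood at 19289 and 21798 CPM, where with them it stood at 11723 and 21065 CPM.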
